A study of Neurospora crassa with 18 samples.

Results

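Of the 9774 genes in the expression table of *Neurospora crassa*, 80 were both abundant with phosphate and much lower without it. They were chosen by their values in wild-type cells: a mean of at least 1000 TPM at 7 mM phosphate and a mean at 0 mM phosphate of at most 1/4 of that level. TPM gives the share of a library's transcripts, corrected for transcript length, and adds up to 1000000 in each library. Only 149 genes reached 1000 TPM at 7 mM, and the 80 genes were drawn from them. The fall in those libraries is what chose the 80 genes, so it is described below without a test, and tests of the 80 genes are given only for libraries that the choice did not use.

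Most of the 80 genes encode ribosomal proteins. By annotation or gene name, 40 encode proteins of the 60S subunit, 21 encode proteins of the 40S subunit, and 7 are cytoplasmic ribosomal protein genes whose names give no subunit. *po* and *cyh-2* (60S) and *cpc-2* and *ubi::crp-6* (40S) were placed by gene name, since their annotation gives no subunit. Another 2 genes are annotated differently: *rap-1* (NCU03393), a ribosome-associated protein gene, and *hsp70-2* (NCU02075), a gene of the Hsp70 chaperone family. The remaining 10 genes carry no role in the annotation used here.

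The cytosolic ribosome translates nuclear messages. Its small (40S) subunit reads the mRNA and its large (60S) subunit joins amino acids, and each subunit holds many proteins around ribosomal RNA, a polymer that carries a phosphate at every nucleotide. In growing fungal cells, ribosomal protein messages are among the most abundant, and in budding yeast they are repressed together under many stresses.

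RNA was sequenced from mycelia, the filamentous growth form, in 18 libraries that formed 6 conditions of 3 libraries each in 3 experiments. All cultures were grown in Vogel's minimal medium with sucrose, washed and moved to Fries minimal medium. In experiment 1, wild type *mat A* (FGSC 2489) was starved at 0 mM phosphate for 4 h or held at 7 mM phosphate for 4 h. In experiment 2, *nuc-1*::HygR *mat a* (FGSC 11448, called Δ*nuc-1*) and wild type *mat A* (FGSC 2489) were starved for 4 h. In experiment 3, *nuc-3*::HygR *mat a* (FGSC 11356, called Δ*nuc-3*) and wild type *mat a* (FGSC 4200) were starved for 12 h. NUC-1 is the transcription factor that drives the phosphate starvation response, and *nuc-3* encodes a second transcription factor. Each deletion is represented by 1 strain, and Δ*nuc-1* also differed from its wild type in mating type. The experiments differed in sequencing instrument and read length, and experiment 1 also in sequencing centre, so differences between experiments cannot be told apart from these. Phosphate at 7 mM was measured only in experiment 1.

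The labels were checked on *nuc-1*, *nuc-3* and *pho-2*, the alkaline phosphatase gene switched on by NUC-1. *nuc-1* lay between 1.87 and 2.25 TPM in Δ*nuc-1* and between 23.4 and 41.3 TPM in its wild type, and *nuc-3* lay between 0.397 and 1.46 TPM in Δ*nuc-3* and between 108 and 227 TPM in its wild type. *pho-2* was between 3795 and 5509 TPM in starved wild type of experiment 1, against 7.91 to 10.1 TPM at 7 mM. The deposited TPM hold no counts, so the read depth is unknown, and errors are the spread between 3 libraries.

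The 80 genes took up much of the transcripts with phosphate and little after 4 h of starvation in experiment 1. Together they held 2.85, 4.16 and 4.85% of the TPM of the starved libraries, against 33.9, 33.4 and 32.2% at 7 mM. A lower share in such bulk RNA cannot be told apart into fewer cells that express the genes and less of their RNA per cell. In Δ*nuc-1* they held 28.96, 28.2 and 30.2%, against 16.3, 19.7 and 22.4% in starved wild type of experiment 2. After 12 h of starvation they held 7.75, 6.72 and 8.08% in Δ*nuc-3*, against 8.25, 9.75 and 8.59% in wild type. The Δ*nuc-1* libraries were all above their wild type, while the highest Δ*nuc-3* library lay just under the lowest wild-type library. Starved wild type therefore differed by experiment, and the mean share at 4 h was 3.95 ± 1.01% in experiment 1 and 19.5 ± 3.08% in experiment 2 (SD, n = 3 each).

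**Figure D1:**
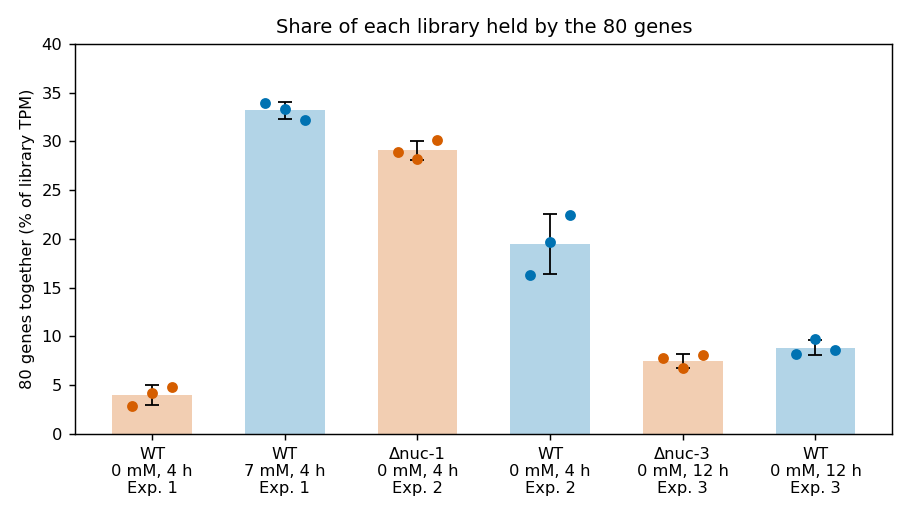
Share of each library's TPM held by the 80 genes, in percent, for 6 conditions. Points are libraries, bars are means and error bars are SD of 3 libraries. The 7 mM libraries lie between 32.2 and 33.9%, and starved wild type lies near 4% or near 19% at 4 h, depending on the experiment, and near 9% at 12 h.

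In experiment 1, which chose the genes, the mean at 0 mM was a median of 11.6% of that at 7 mM and ranged from 8.56 to 21.6% over the 80 genes. The falls of the 80 genes were thus much alike in size, which is partly set by the choice, since it left out smaller falls. The 40 genes of the 60S subunit had a median of 11.2%, the 21 genes of the 40S subunit 11.8%, and the 10 genes without a role 12.5%. Ranked by level, the genes kept nearly the same order in starved and 7 mM cells (Spearman's rho = 0.95 over 80 genes, a description over genes of the same libraries).

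The most abundant of the 80 genes was NCU16635, which has no role and no entry in the reference table. It had 2269, 3472 and 3596 TPM in starved cells, against 19046, 19020 and 18140 TPM at 7 mM. Next came the gene of the acidic stalk protein P2 (NCU00979), whose product helps to recruit translation factors, with 1051, 1696 and 2008 TPM in starved cells, against 17345, 15185 and 14866 TPM at 7 mM. The gene of L38 (NCU03635), a small protein of the 60S subunit, had 952, 1394 and 1817 TPM in starved cells, against 15832, 16472 and 13852 TPM at 7 mM. In each of the 3 genes, starved replicate 1 was the lowest library, as it was for 77 of the 80 genes, and replicate 3 was the highest for 78.

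The widest falls were those of S12 (NCU06432) at 11.7-fold, L9 (NCU02744) at 11.4-fold and L25 (NCU06226) at 11.1-fold. S12 is a protein of the small subunit, and L25 sits beside the exit of the tunnel through which the nascent chain leaves the ribosome. The mean level of S12 was 854 ± 312 TPM in starved cells and 9978 ± 981 TPM at 7 mM (SD, n = 3 each). *cpc-2* (NCU05810), whose product is a scaffold protein on the small subunit and is needed for the general control of amino acid synthesis in *N. crassa*, fell 11.02-fold to 183 ± 55.8 TPM in starved cells, against 2016 ± 18.4 TPM at 7 mM (SD, n = 3 each).

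Near the limits of the choice, the smallest falls among the 80 genes were 4.63-fold for S27 (NCU00618), 4.90-fold for L10 (NCU08964) and 5.04-fold for L10a (NCU00294). The abundant genes nearest outside were *pdx-1* (NCU06550), a vitamin B6 synthesis gene, at 3.57-fold, *cyc-1* (NCU01808), the cytochrome c gene, at 3.26-fold, and NCU03148 at 2.94-fold. No abundant gene lay between 3.57-fold and 4.63-fold. By level at 7 mM, S24 (NCU07182) at 1058 TPM, *un-25* (NCU05554) at 1078 TPM and *rap-1* at 1096 TPM were just inside. *crp-15* (NCU00258), a further ribosomal protein gene that fell 9.5-fold, was just outside at 922 TPM, followed by NCU08923 at 827 TPM and the amino acid permease gene *mtr* (NCU06619) at 652 TPM. The 69 other genes of at least 1000 TPM had a median ratio of 0.940 between starved and 7 mM cells in deposited TPM, with a range from 0.280 to 14.4. On that scale a lower share of the 80 genes raises the share of the others. The median over genes averaging 10 TPM or more was 1.29. After rescaling over 18 libraries the 69 genes had a median ratio of 0.688, and 54 of them were lower in starved cells. On that scale the genes averaging 10 TPM or more had a median ratio of 0.938, and 3552 of 6376 were lower.

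Starved wild type of experiment 2 was nominally the same condition as starved wild type of experiment 1. All 80 genes were higher in it, where 32.9% of all genes were. The 80 genes were chosen by low values in starved wild type of experiment 1 and high values at 7 mM. Counts against either condition are thus partly set by the choice, and the shares over all genes had no such choice. The ratio of the means had a median of 5.08 and ranged from 1.12 to 17. The 3 libraries of experiment 2 lay above the 3 of experiment 1 for 77 genes, where 17.1% of 8436 genes (those averaging 1 TPM or more in either condition) were placed in this way. The median level in starved wild type of experiment 2 was 58.7% of that at 7 mM, with a range from 12.1 to 206%, and 17 of the 80 genes lay above their 7 mM mean, against 53.8% of 8151 genes. Genes alike in experiment 1, where the choice limited their range, thus spread over a wide range in experiment 2, where it did not. Between starved wild type of experiment 2 and 7 mM cells of experiment 1 the order of levels was less alike (rho = 0.56 over 80 genes) than between the conditions of 1 experiment, where rho was 0.95 to 0.97. The part of instrument, read length, centre and culture in this was not tested.

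**Figure D2:**
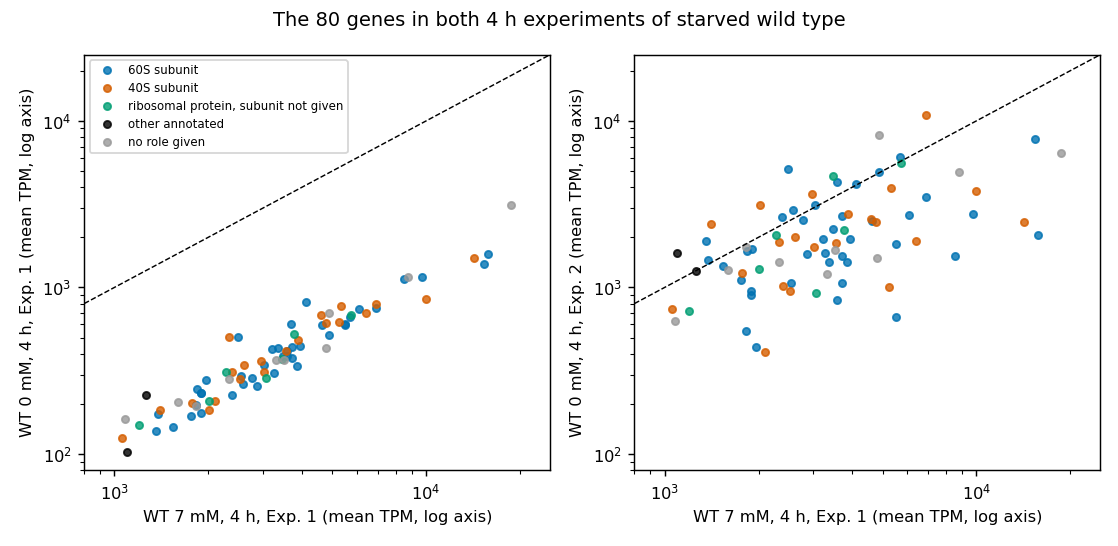
Mean TPM of the 80 genes in starved wild type of experiment 1 (left) and of experiment 2 (right), each against wild type at 7 mM of experiment 1, on log axes. Each point is a gene, coloured by annotation or gene name, and the dashed line marks equal levels. All points lie well under the line on the left, in a narrow band, while on the right they spread and 17 lie above it.

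The contrast was widest between *cpc-2* and L33. *cpc-2* had 2654, 3410 and 3266 TPM in starved wild type of experiment 2, which was 17 times its starved mean in experiment 1 and 154% of its level at 7 mM. L33 (NCU09109; chromosome I, 5353969 to 5355311), a protein of the 60S subunit, had 571, 621 and 809 TPM in starved wild type of experiment 2 and 427, 612 and 740 TPM in that of experiment 1, against 5502, 5496 and 5528 TPM at 7 mM. The starved libraries of L33 overlapped between the experiments. P2 was also low in both, with 1556, 1976 and 2665 TPM in starved wild type of experiment 2, or 13.1% of its 7 mM mean. At the other end, L10, whose product joins the 60S subunit late in its maturation, reached 206% of its 7 mM mean. In the annotation L10 overlaps the neighbouring gene L30 (NCU08963) by 170 bases, so reads in the overlap could have been given to either gene.

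At 12 h of starvation the level of the 80 genes lay between both 4 h levels of starved wild type. Against starved wild type of experiment 1, the 12 h wild type was higher for 79 genes (38.9% of all genes) by a median of 2.46-fold (0.840 to 6.36), and its libraries lay above all 4 h libraries for 76 genes, where 23% of 8453 genes with a mean of 1 TPM or more did so. Against starved wild type of experiment 2, the 12 h wild type was lower for 73 genes (41.5% of all genes), with a median ratio of 0.524 (0.156 to 1.68), and its libraries lay under all 4 h libraries for 62 genes, where 22.5% of 8264 genes did so. The direction of a change between 4 h and 12 h thus turned with the experiment used for 4 h. Low values in starved wild type of experiment 1 chose the 80 genes, so the counts against it are partly set by the choice. Time, experiment, strain and mating type cannot be told apart here.

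Against cells at 7 mM, wild type at 12 h was lower for all 80 genes, with a median of 30.2% of the 7 mM mean and a range from 8.42 to 69.9%. High values at 7 mM were part of the choice of the genes. S27 at 69.9% and S2 (NCU06047) at 68.8% were nearest to it, and P2 at 8.42% and L38 at 10.3% were farthest from it. P2 was the 1 gene whose 12 h mean was under that of starved wild type in experiment 1, with 1263, 1486 and 1244 TPM at 12 h. The largest ratio of 12 h to 4 h wild type of experiment 1 was 6.36, for L20 (NCU08389).

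**Figure D3:**
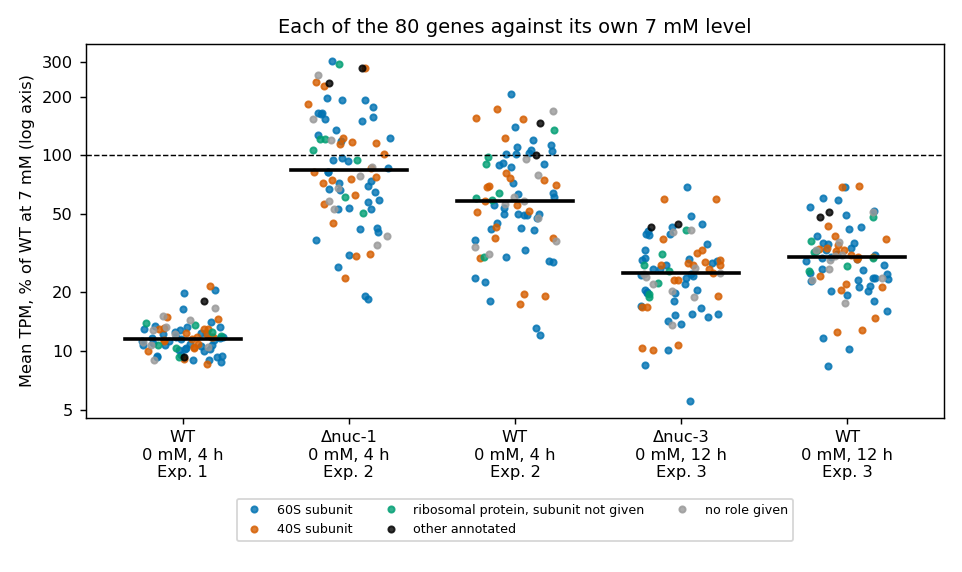
Mean TPM of each of the 80 genes as a percentage of its own mean in wild type at 7 mM (experiment 1), on a log axis, for the 5 starved conditions. Points are genes coloured by annotation or gene name, black bars are medians and the dashed line marks 100%. The medians are 11.6%, 84.3%, 58.7%, 25.0% and 30.2% from left to right.

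Set against the 4 h wild type of experiment 2, the ratio at 12 h differed widely between genes. It was lowest for S29 (NCU03738; chromosome V, 2254968 to 2256313), a small protein of the 40S subunit, which had 1541, 1798 and 1698 TPM at 12 h, against 9039, 11199 and 12095 TPM at 4 h. L34 (NCU07857), a 60S protein, had 732, 821 and 792 TPM at 12 h, against 4354, 5050 and 5476 TPM at 4 h, and L38 had 1567, 1663 and 1502 TPM at 12 h, against 6784, 7623 and 8833 TPM at 4 h. The ratio was highest for L33, with 1079, 1213 and 1073 TPM at 12 h, above every 4 h library of starved wild type in either experiment. L44 (NCU00706), with 1950 ± 188 TPM at 12 h and 1543 ± 235 TPM at 4 h, and NCU08344, a further 60S gene with 514 ± 40.1 TPM at 12 h and 440 ± 82.8 TPM at 4 h (SD, n = 3 each), followed.

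**Figure D4:**
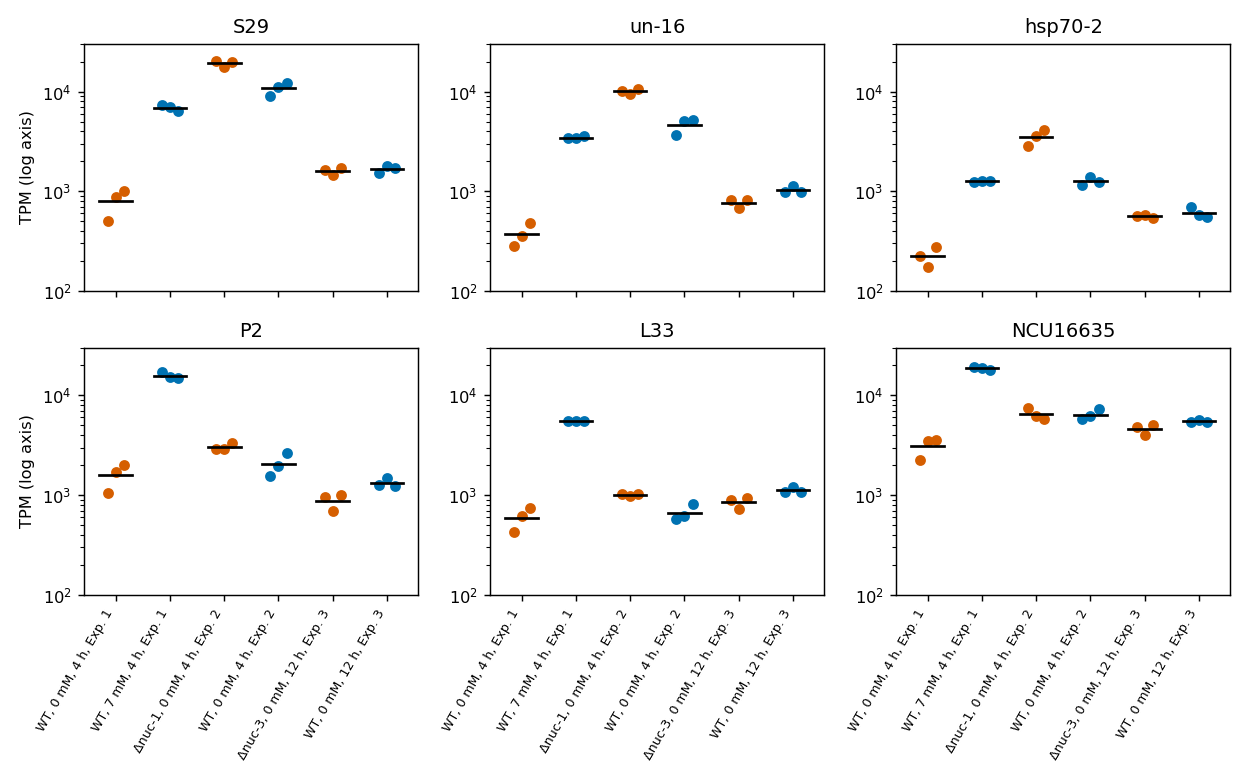
TPM of 6 genes in each of the 18 libraries, on a log axis, by condition. Points are libraries and black bars are means of 3. S29, *un-16* and *hsp70-2* are highest in the Δ*nuc-1* libraries, and P2, L33 and NCU16635 are highest at 7 mM. All 6 genes are lower in starved than in 7 mM libraries of experiment 1.

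The comparison of Δ*nuc-1* with wild type in experiment 2 asked how the genes depend on *nuc-1* during starvation. All 80 genes had a higher mean in Δ*nuc-1*, as did 50.3% of the genes tested, and 53 of them were called higher and 0 lower, where 11.3% of the 8037 genes tested were called higher and 11.4% lower. The calls are from limma on log2(TPM + 1) after rescaling of each library, at a Benjamini-Hochberg adjusted p under 0.05. The median log2 fold change of the 80 genes was 0.77, with a range from 0.21 to 1.66, and that of all genes tested was 0.00. Where the group means of rescaled TPM also had to differ by a ratio of at least 2, 7 of the 80 genes were called higher, where 5.1% of the genes tested were. In deposited TPM, the Δ*nuc-1* libraries lay above all wild-type libraries for 71 genes, where 12.6% of the genes tested did so.

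The count of calls depended on single libraries. It was 77 without wild-type replicate 3, 24 without wild-type replicate 1, and 17 without wild-type replicate 2, where 739, 524 and 609 of all genes tested were called higher. It was 22 without Δ*nuc-1* replicate 2 and 17 without Δ*nuc-1* replicate 3, where 527 and 587 of all genes tested were called higher. With all libraries, 910 were. The 80 genes varied together between the wild-type libraries: replicate 1 was the lowest for all 80 genes and replicate 3 the highest for 69. Their median SD between the wild-type libraries was 0.383 log2 units, against 0.178 over all genes, and in Δ*nuc-1* it was 0.148, against 0.161 over all genes. The 80 genes are therefore not 80 separate measures of the effect. With TPM as deposited, the calls over all genes were 601 higher and 1374 lower, against 910 higher and 920 lower after rescaling. The fit without rescaling also moved the median over all genes to -0.17, and 61 of the 80 genes were called higher with a median of 0.58.

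*hsp70-2* (chromosome I, 1450891 to 1453703) differed most. It had 2868, 3582 and 4108 TPM in Δ*nuc-1*, against 1156, 1381 and 1252 TPM in wild type. Its log2 fold change was 1.66 ± 0.20 (SE; limma adjusted p = 0.00172), and no libraries overlapped. *un-16* (NCU01949; chromosome I, 1896783 to 1898329), also named *crp-17*, had 10218, 9357 and 10735 TPM in Δ*nuc-1*, against 3629, 5115 and 5235 TPM in wild type, a log2 fold change of 1.32 ± 0.23 (SE; limma adjusted p = 0.00622). L30, which in budding yeast binds and restrains its own message, had 2149, 2003 and 2139 TPM in Δ*nuc-1*, against 881, 1177 and 1279 TPM in wild type, a log2 fold change of 1.12 ± 0.21 (SE; limma adjusted p = 0.00713).

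Among the other genes called at a ratio of at least 2 were *po* (NCU07408), the gene of the stalk protein P0 to which the acidic stalk proteins bind, S29 and NCU06743, which has no role. *po* had 5091, 5881 and 6543 TPM in Δ*nuc-1*, against 2985, 3112 and 3266 TPM in wild type. S29 had 20391, 17761 and 19699 TPM in Δ*nuc-1*, against 9039, 11199 and 12095 TPM in wild type, and had the highest mean of the 80 genes in both conditions of experiment 2. NCU06743 had 3021, 2894 and 3280 TPM in Δ*nuc-1*, against 1272, 1762 and 1998 TPM in wild type. L16 (NCU01221) was also called, with a ratio of 2.03 between the means of rescaled TPM. In *po* and NCU06743, as in S29, all Δ*nuc-1* libraries were above all wild-type libraries for deposited TPM.

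The smallest log2 fold changes were those of NCU16635, *crp-5* (NCU04552) and NCU01552, which did not pass the test. NCU16635 had 7548, 6144 and 5819 TPM in Δ*nuc-1*, against 5741, 6147 and 7312 TPM in wild type, and the groups overlapped (0.21 ± 0.21, SE; limma adjusted p = 0.504). *crp-5*, a ribosomal protein gene, had 2196, 2270 and 2421 TPM in Δ*nuc-1*, against 1783, 2447 and 2435 TPM in wild type, and NCU01552 had 4846, 5063 and 5492 TPM in Δ*nuc-1*, against 3941, 5271 and 5612 TPM in wild type. Of the 10 genes without a role, 4 were called higher. By subunit, 28 of 40 genes of the 60S subunit and 15 of 21 of the 40S subunit were called higher, with median log2 fold changes of 0.75 and 0.79.

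Ubiquitin is encoded in part as a fusion to ribosomal proteins, and both fusion genes were among the 80. *ubi::crp-6* (NCU04553), the fusion to a protein of the 40S subunit, had 4724, 4029 and 4287 TPM in Δ*nuc-1*, against 2152, 2383 and 2917 TPM in wild type (log2 fold change 1.01 ± 0.21, SE; limma adjusted p = 0.0102). L40 (NCU05032), the fusion to a protein of the 60S subunit, had 4957, 4402 and 5042 TPM in Δ*nuc-1*, against 2613, 3413 and 4374 TPM in wild type, and did not pass the test (0.69 ± 0.25, SE; limma adjusted p = 0.0867). The ubiquitin stretches of such genes resemble each other, so how reads were divided among them is uncertain. P2 did not pass the test either, with 2884, 2873 and 3302 TPM in Δ*nuc-1*, against 1556, 1976 and 2665 TPM in wild type. *cpc-2* passed it (0.81 ± 0.19, SE; limma adjusted p = 0.0176), as did *cyh-2* (NCU03806), in which mutations give resistance to cycloheximide (0.62 ± 0.19, SE; limma adjusted p = 0.0439).

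Set beside the 7 mM cells of experiment 1, Δ*nuc-1* had a median of 84.3% of the 7 mM level, with a range from 18.3 to 304%. The mean was above that at 7 mM for 33 of the 80 genes, where 44.1% of 8084 genes were higher. L10 was at 304% and S29 at 279%, while L33 was at 18.3% and P2 at 19.1%. These values compare 2 experiments, and high values at 7 mM were part of the choice of the genes. The order of levels in Δ*nuc-1* was most like that of the wild type sequenced with it (rho = 0.97 over 80 genes).

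The comparison of Δ*nuc-3* with wild type in experiment 3 asked the same of *nuc-3* at 12 h. Of the 80 genes, 0 were called higher and 0 lower, where 1.41% of the 8005 genes tested were called higher and 0.312% lower. At an unadjusted p under 0.05, 15 of the 80 genes were lower and 0 higher in the limma fit, where 9.79% of the genes tested were lower and 11.9% higher. The means were lower for 72 of the 80 genes after rescaling, where 51.8% of the genes tested were lower, and the median log2 fold change was -0.26 (-0.62 to 0.18), against -0.01 over all genes tested. In deposited TPM the Δ*nuc-3* libraries lay under all wild-type libraries for 53 genes, where 14.8% of the genes tested did so. The SE of a log2 fold change ranged from 0.0938 to 0.265 over the 80 genes, with a median of 0.161, and the lowest adjusted p was 0.133, so a difference of the median size was not detectable gene by gene.

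**Figure D5:**
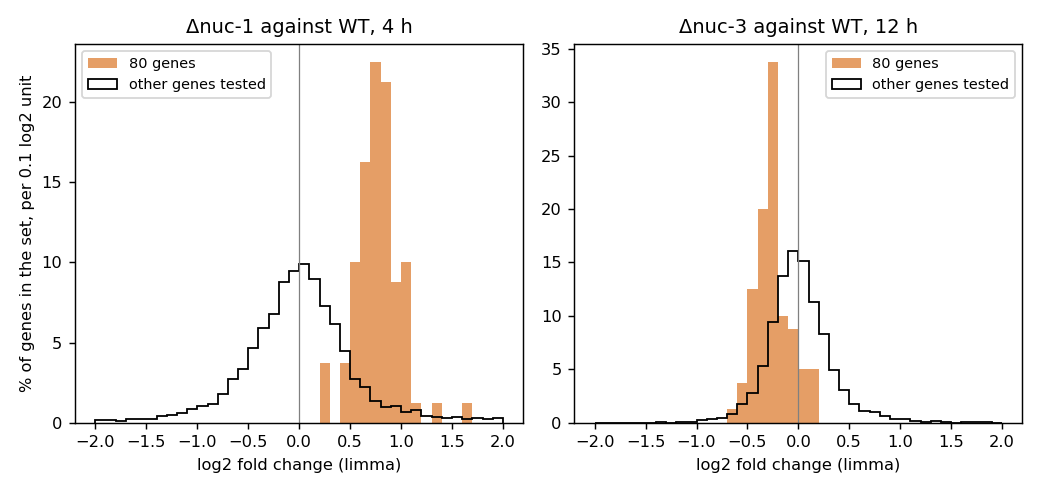
Distribution of limma log2 fold changes of the 80 genes (filled) and of the other genes tested (outline) for Δ*nuc-1* against wild type at 4 h (left) and Δ*nuc-3* against wild type at 12 h (right), as a percentage of each set per bin of 0.1 log2 units. The medians of the 80 genes are 0.77 on the left and -0.26 on the right, and all 80 lie above 0 on the left. Genes beyond the axis limits are not drawn.

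The lowest log2 fold changes in Δ*nuc-3* were those of L12, P2 and L36. L12 (NCU01317), at the base of the stalk, had 645, 504 and 654 TPM in Δ*nuc-3*, against 857, 1050 and 889 TPM in wild type (-0.62 ± 0.18, SE; limma adjusted p = 0.133). P2 had 950, 698 and 991 TPM in Δ*nuc-3*, against 1263, 1486 and 1244 TPM in wild type (-0.59 ± 0.20, SE; limma adjusted p = 0.167). L36 (NCU03302), a 60S protein, had 528, 385 and 476 TPM in Δ*nuc-3*, against 639, 784 and 683 TPM in wild type (-0.59 ± 0.18, SE; limma adjusted p = 0.14). The groups did not overlap in these 3 genes, and replicate 2 was the lowest Δ*nuc-3* library in each, as it was for 74 of the 80 genes. Wild-type replicate 2 was the highest library of its group for 78 genes. The median log2 fold change was -0.15 without Δ*nuc-3* replicate 2 and also -0.15 without wild-type replicate 2.

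The highest log2 fold changes in Δ*nuc-3* belonged to NCU09089, L30 and L39. NCU09089, without a role, had 1980, 1869 and 2069 TPM in Δ*nuc-3*, against 1529, 1908 and 1841 TPM in wild type. L30 had 402, 422 and 424 TPM in Δ*nuc-3*, against 347, 405 and 365 TPM in wild type. L39 (NCU08990), a very small protein that lines the exit tunnel, had 2549, 2355 and 2716 TPM in Δ*nuc-3*, against 2071, 2392 and 2361 TPM in wild type. The libraries overlapped in all 3 genes, and none passed the test. *hsp70-2*, with the highest log2 fold change of the 80 genes in Δ*nuc-1*, had 564, 585 and 545 TPM in Δ*nuc-3*, against 696, 585 and 553 TPM in wild type.

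Relative to the 7 mM cells of experiment 1, Δ*nuc-3* at 12 h had a median of 25.0% (5.57 to 69.1%), and all 80 genes were lower. Its mean was above that of starved wild type of experiment 1 for 77 of the 80 genes, where 39.2% of 8471 genes were higher. The choice of the genes used these conditions of experiment 1, so the counts against them are partly set by it. P2 was lowest relative to 7 mM, at 5.57%. L22 (NCU06661) followed at 8.45%, with 165, 144 and 171 TPM in Δ*nuc-3* and 223, 240 and 196 TPM in wild type at 12 h, against 1897, 1960 and 1832 TPM at 7 mM.

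Orders of the 6 conditions were counted for the 80 genes only. The choice put the mean at 7 mM above that of starved wild type of experiment 1, so the order of this pair was set by it. Ranked by their means, 35 of the 80 genes had the same order of the 6 conditions. In these, cells at 7 mM were highest, then Δ*nuc-1*, wild type of experiment 2, wild type at 12 h, Δ*nuc-3* at 12 h and starved wild type of experiment 1. For a further 15 genes Δ*nuc-1* came before the 7 mM cells with the rest of the order the same, and for 13 genes both conditions of experiment 2 came before them. Of these neighbours, Δ*nuc-3* and wild type at 12 h were not called different for any of the 80 genes at the adjusted p. In deposited TPM the Δ*nuc-3* libraries still lay under all wild-type libraries for 53 of them, where 14.8% of the genes tested did so.

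Genes of other steps in making ribosomes and proteins were counted from lists built on annotation names. The lists are incomplete, since names were at hand for only part of the genes. Of 19 ribosome biogenesis genes, 19 were called higher in Δ*nuc-1* with a median log2 fold change of 1.84, and of 6 RNA polymerase I subunit genes, which transcribe ribosomal RNA, 6 were called higher with a median of 1.43. Of 17 initiation factor genes, 13 were called higher (median 0.69), of 20 mitochondrial ribosomal protein genes 14 (median 0.65), of 5 elongation factor genes 1 (median 0.46), and of 17 aminoacyl-tRNA synthetase genes 1 (median 0.21). None of these lists had a gene called lower in Δ*nuc-1*. Of 6 proteasome subunit genes 4 were called lower (median -0.53), and of 8 ATP synthase subunit genes 1 was called higher (median 0.03). The list of 5 phosphate acquisition genes was set by gene identifier, with earlier results of these data known. All 5 were called lower in Δ*nuc-1*, with a median of -7.79, which serves only as a check.

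In experiment 1, most genes of these lists, other than the proteasome and phosphate acquisition genes, were called lower at 0 mM, where 35.1% of the 8396 genes tested were called lower. The median log2 fold change at 0 mM against 7 mM was -2.71 for ribosome biogenesis genes with 19 of 19 called lower, and -2.01 for RNA polymerase I genes with 6 of 6 called lower. It was -1.63 for mitochondrial ribosomal protein genes with 20 of 20 called lower, -1.12 for initiation factor genes with 17 of 17, -0.59 for elongation factor genes with 4 of 5, -0.62 for aminoacyl-tRNA synthetase genes with 14 of 17, and -0.72 for ATP synthase genes with 8 of 8. All 6 proteasome genes were called higher, with a median of 0.45. In Δ*nuc-3* at 12 h none of these lists had a called gene. Their medians there were -0.09 for ribosome biogenesis, 0.02 for mitochondrial ribosomal proteins, 0.40 for ATP synthase and -0.27 for aminoacyl-tRNA synthetases.

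A further 17 genes carry a ribosomal protein name but are not among the 80, all at 922 TPM or less at 7 mM. Their names do not separate cytosolic from mitochondrial ribosomal proteins. The paper calls NCU04225 among them *mrp-29*, so some may be mitochondrial. In experiment 1, 16 of them were called lower and 1 higher, with a median log2 fold change of -1.62. In Δ*nuc-1*, 11 were called higher with a median of 0.56. Among these was NCU07547, annotated as a P0 protein like *po* but far less abundant, with a mean of 134 TPM in Δ*nuc-1* and 26.9 TPM in wild type. In Δ*nuc-3*, 1 was called lower, NCU04614, an L19 gene at a mean of 19.8 TPM in Δ*nuc-3* and 29.1 TPM in wild type, named after its value was seen. No gene with a ribosomal protein name and at least 1000 TPM at 7 mM was outside the 80.

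In the genome, 79 of the 80 genes had a position in the annotation of the assembly NC12, with 26 on chromosome I, 16 on III, 14 on V, 11 on II, 6 on VII, 5 on VI and 1 on IV. Among them, 14 genes formed 7 pairs of direct neighbours. *un-16* stands 77 bases from NCU01948, *ubi::crp-6* 151 bases from *crp-5*, and S12 104 bases from NCU06431. The log2 fold changes of neighbours in Δ*nuc-1* lay far apart in some pairs and close in others. They were 1.32 for *un-16* and 0.57 for NCU01948, 1.01 for *ubi::crp-6* and 0.25 for *crp-5*, and 1.12 for L30 (NCU08963) and 0.75 for NCU08964. In the other pairs they were 0.75 for NCU02707 and 1.00 for NCU10498, 0.68 for NCU09475 and 0.82 for NCU09476, 0.75 for NCU07829 and 0.63 for NCU07830, and 0.82 for NCU06431 and 0.92 for NCU06432. The median gene length was 1861 bases for these genes and 2124 for all genes.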

How the data were processed

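RNA-seq of 18 libraries was used. Per the paper's methods, poly(A)-enriched libraries were read and the authors quantified transcripts with Salmon version 1.4.0 against the OR74A genome version 12. The deposited values are TPM, which sum to 1000000.0 per library and keep no depth, so their precision is given only by 3 libraries per condition. The transcripts of a gene were summed, which for 11 of the 80 genes joined more than 1 transcript. For each comparison, libraries were rescaled by median-of-ratios factors, and genes averaging 1 TPM or more under 1 of the conditions entered the test on log2(TPM + 1) with limma version 3.58.1 (lmFit, eBayes with trend) in R version 4.3.3, with Benjamini-Hochberg adjustment over all genes tested. Folds on this scale understate changes of low genes. The authors tested counts with DESeq2, and no counts were used here.

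Replicates were independently inoculated cultures per the paper. Each limma comparison in the main fit stayed within an experiment as numbered in the labels. Ratios and counts between experiments are descriptions without a test. The 80 genes and the gene lists were chosen with earlier results of these data known. Genes were named by rule: the highest and lowest level, fall and log2 fold change, those nearest the limits, genes not annotated as ribosomal proteins, the stalk and ubiquitin fusion genes, L39, *cpc-2* and *cyh-2*. L16, L20, L22, S2, NCU07547 and NCU04614 were named outside this rule. Ribosomal protein names came from annotation tables of the study and the RefSeq table. Other scalings, an added 0.1, no filter, a robust fit, a fit over 18 libraries, a block and each library left out were tried. Promoter and protein sequences were not analysed here. The procedure was tested on simulated data. Of 100 genes changed by 0.585 log2 units, 28 were recovered with the spread of the Δ*nuc-1* comparison and 37 with that of Δ*nuc-3*. Of 100 changed by 1 log2 unit, 70 and 72 were recovered, and 6 unchanged genes were called in each. The simulated noise was drawn for each gene separately, while the 80 genes varied together between libraries. Python version 3.11.15, pandas version 2.3.3, NumPy version 2.4.6, SciPy version 1.17.1 and matplotlib version 3.10.9 were used.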

Additional observations from a re-analysis of the deposited data

How the results depend on the processing

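The choice of the genes gave 75 with 1 listed transcript per gene, 85 with rescaled TPM and 80 without any 1 library of experiment 1. For Δ*nuc-1*, leaving out a library gave 17 to 77 genes called higher with medians of 0.58 to 0.98, TPM as deposited gave a median of 0.58, and 0 genes were called lower under any alternative. For Δ*nuc-3*, 0 genes were called in either direction under any alternative, with medians of -0.35 to -0.15. Few genes of any kind were called in some of these. Over all genes tested, 2 were called higher and 1 lower with a replicate block, and 4 higher and 1 lower without wild-type replicate 3. The fit over 18 libraries called 343 higher and 152 lower. Rescaled over 18 libraries, the median ratio of starved wild type in experiment 2 to that in experiment 1 was 6.85 and that of 12 h to 4 h wild type of experiment 2 was 0.449. The summed level was then 8.73% of that at 7 mM in starved wild type of experiment 1, 95.3% in Δ*nuc-1*, 22.5% in wild type at 12 h and 19.2% in Δ*nuc-3*. The causes were not tested.

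Same-numbered replicates did not deviate together: correlations ran from -0.0264 to -0.107 in experiment 2 and from -0.0483 to -0.69 in experiment 3, where differently numbered ones correlated by up to 0.684. With the replicate block, 66 genes were called higher in Δ*nuc-1* (median 0.77), where 728 of all genes tested were. In Δ*nuc-3* 0 were called higher (median -0.26), where 2 of all genes tested were. No filter on low values gave 38 genes called higher in Δ*nuc-1*, where 832 of all genes tested were. No named gene changed direction under any alternative in the Δ*nuc-1* comparison, but calls did change. Over the named genes among the 80 and all alternatives, a call was lost in 78 results, gained in 32 and unchanged in 464. In the Δ*nuc-3* comparison, 5 named genes that were not called did. L38 (NCU03635) was at -0.0129 with TPM as deposited, -0.0023 in the fit over 18 libraries, -0.0005 with factors from genes outside the 80 and -0.0687 with upper-quartile scaling, and L20 (NCU08389) was at -0.0449 with upper-quartile scaling. With 1 library left out, the log2 fold change ran from -0.0958 to 0.0881 for L38, from -0.099 to 0.1636 for L20, from -0.4089 to 0.026 for S27 (NCU00618), from -0.1521 to 0.0486 for S29 (NCU03738) and from -0.2177 to 0.0207 for *cyh-2* (NCU03806).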

Other observations

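In 4 of the 5 starved groups, though not in Δ*nuc-1*, the library with the lowest share of the 80 genes had the highest summed level of 19 ribosome biogenesis genes, a pattern noticed in the data and not tested. In Δ*nuc-1* the biogenesis genes summed to 1172, 1646 and 2506 TPM in replicates 1, 2 and 3, where the 80 genes held 28.96, 28.2 and 30.2% of the library, so the library with the highest share had the highest sum. In starved wild type of experiment 2 the biogenesis genes summed to 610, 531 and 412 TPM in replicates 1, 2 and 3, where the 80 genes held 16.3, 19.7 and 22.4% of the library and all other genes held 83.7, 80.3 and 77.6%. In starved wild type of experiment 1 the sums were 379, 266 and 343 TPM, where the 80 genes held 2.85, 4.16 and 4.85%. In Δ*nuc-3* at 12 h they were 480, 486 and 437 TPM, where the 80 genes held 7.75, 6.72 and 8.08%, and in wild type at 12 h 515, 449 and 475 TPM, where the 80 genes held 8.25, 9.75 and 8.59%.

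Those 4 libraries of lowest share also had the highest level of *pho-2* in their group. *pho-2* had 4082, 2843 and 2440 TPM in starved wild type of experiment 2, 5509, 3795 and 4167 TPM in that of experiment 1, 9471, 10795 and 6544 TPM in Δ*nuc-3* at 12 h, and 4589, 2309 and 3416 TPM in wild type at 12 h. In Δ*nuc-1* it had 10.8, 11.1 and 11.5 TPM.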
